A study of Danio rerio with 6 samples.

Results

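The Cas9 protein fish are the 3 zebrafish named P1, P2 and P3, chosen by the injected form of Cas9 that their labels give, out of 6 fish in the study. Each fish carried 8 copies of an H2A-GFP transgene, received Cas9 protein and a single-guide RNA against GFP as a 1-cell embryo, and was dissected at about 1 year of age. The other 3 fish, R1, R2 and R3, had the same transgene, guide and age but received Cas9 RNA, and no fish without Cas9 was analysed here. The deposited counts give, for each fish, the number of reads of every scar in every barcode of a fragment of GFP amplified from genomic DNA of dissected body parts. The tables number the barcodes as columns, the list that ties a column to a body part was not used here, and nothing in the tables marks which columns are technical replicas of one part. All values below are therefore given by column number within a fish, columns of a fish are parts of 1 animal and not replicates of the injection, and a standard deviation (SD) over columns describes their spread only.

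In ScarTrace, Cas9 cuts the transgene copies in the early embryo, and faulty repair leaves insertions or deletions called scars. A scar is copied at every cell division, so all descendants of the cell in which it arose carry it, and its share of the reads in a dissected part follows how many of that part's cells descend from that cell. Cas9 protein can cut as soon as it is injected and is soon lost, whereas Cas9 RNA must first be translated and acts for longer. The same deletion can also arise independently in different cells or different fish, because repair of a cut favours certain products.

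Of the 220 columns of the Cas9 protein fish, 72 held at least 1000 reads and were used as libraries, 26 in P1, 23 in P2 and 23 in P3, out of 130 such libraries in all 6 fish. Their depth ran from 2802 to 2839277 reads with a median of 323112, and the other 148 columns held at most 563 reads each. The gap between used and unused columns was wide in P2, where the shallowest library held 25098 reads and the deepest unused column 335, and in P3, with 50068 and 364 reads. In P1 it was narrower, because column 16 held only 2802 reads, of which 1842 were scarred. The share of a scar is given throughout as a percent of the scarred reads of its library, and the share of unscarred GFP as a percent of all reads. A count of 3 reads, taken as the floor of detection, corresponded to between 0.000137% and 0.163% of scarred reads in P1, 0.000294% and 0.0174% in P2, and 0.000295% and 0.00919% in P3. No molecular identifiers mark the amplified reads, so the floors cover counting error only.

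A total of 3 libraries stood apart from most other libraries of the fish that their labels name. They are given first because several values below rest on them. The overlap of 2 libraries is the sum, over all scars, of the smaller of the 2 shares, so it is 100% for identical libraries and 0% for libraries without a common scar. The library labelled P1 column 24, the deepest of the 72 with 2839277 reads, had a median overlap of 22.1% with the other P1 libraries and of 53.9% with those of P2. Its closest library was P2 column 17, with an overlap of 87.8%, and both held about the same unscarred GFP, 22.97% and 22.85% of reads. Scars that were particular to 1 fish (a mean share of at least 0.05% there and under 0.005% in each of the other 5 fish) gave the same picture, with the means taken without the library itself and without the other libraries that stood apart. The list of such scars thus differed slightly with the library set against it, and held 29 to 32 scars for P1. The scars particular to P1, here 31, held 0.603% of the scarred reads of this library, when they held 1.67% to 19.3% in the other P1 libraries. Those particular to P2, here 18, held 0.665%, and 0.309% to 9.31% in P2 libraries other than columns 23 and 24. In the other P1 libraries they held at most 0.0358%, apart from column 16, whose 0.0543% is 1 read and lies under its floor. Column 24 of P1 therefore carried scars of both fish, and whether its label is right was not tested. The other pair was P2 columns 23 and 24, which overlapped each other by 91.9% but had median overlaps with their own fish of only 17.6% and 10.5%. They were not apart from all of P2, however. Column 23 overlapped P2 columns 16 and 22 by 59.4% and 58.3%, and column 24 overlapped them by 51.8% and 50.8%. Scars particular to P2, here 18, held 0.355% and 0.235% of their scarred reads, the latter below the range of the other P2 libraries. Scars particular to any other fish held at most 0.0311% and 0.0322%. Both columns held the 8-bp insertion after base 544, at 22.6% and 24.6%, which was near 0 in P1 and P3. That scar ranked first in these columns only, so it was picked through them, and it reached 2.12% in a library of R1 and 2.46% in R3. These 3 were picked after the overlaps had been seen and by no fixed limit. P3 column 9, with a median overlap of 16.6% with its own fish, and P3 column 13, described further on, were kept, and fish values without all 5 libraries are given where they change the order of the groups. Fish means and medians without the 3 follow those of all libraries.

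Unscarred GFP made up 36.3 ± 9.10% of reads in P1 (mean ± SD, n = 26 libraries), 25.1 ± 10.3% in P2 (n = 23) and 25.7 ± 20.4% in P3 (n = 23). In P1 the share ran from 14.9% in column 7 to 50.8% in column 15 with a median of 36.7%, and in P2 from 4.09% in column 24 to 49.7% in column 22 with a median of 22.9%. Without the 3 libraries that stood apart the means were 36.8% in P1 and 26.8% in P2. P3 was the most uneven, with a lowest value of 2.04% in column 1, a median of 28.7% and a highest value of 59.5% in column 21. Libraries in which fewer than 10% of reads were unscarred numbered 9 of the 72.

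Each Cas9 protein fish was led by a different scar. Positions are bases of the 720-bp GFP reference of the deposited tables, and the 14 scars named here all lie between bases 485 and 549. In P1 the deletion of bases 542 to 547 (6 bp) ranked first in 19 of 26 libraries and the deletion of bases 535 to 545 (11 bp) in 4. In P2 the 1-bp insertion after base 532 ranked first in 17 of 23 libraries. In P3 the deletion of bases 532 to 549 (18 bp) ranked first in 15 of 23. Over all 72 libraries only 12 different scars ranked first.

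**Figure D1:**
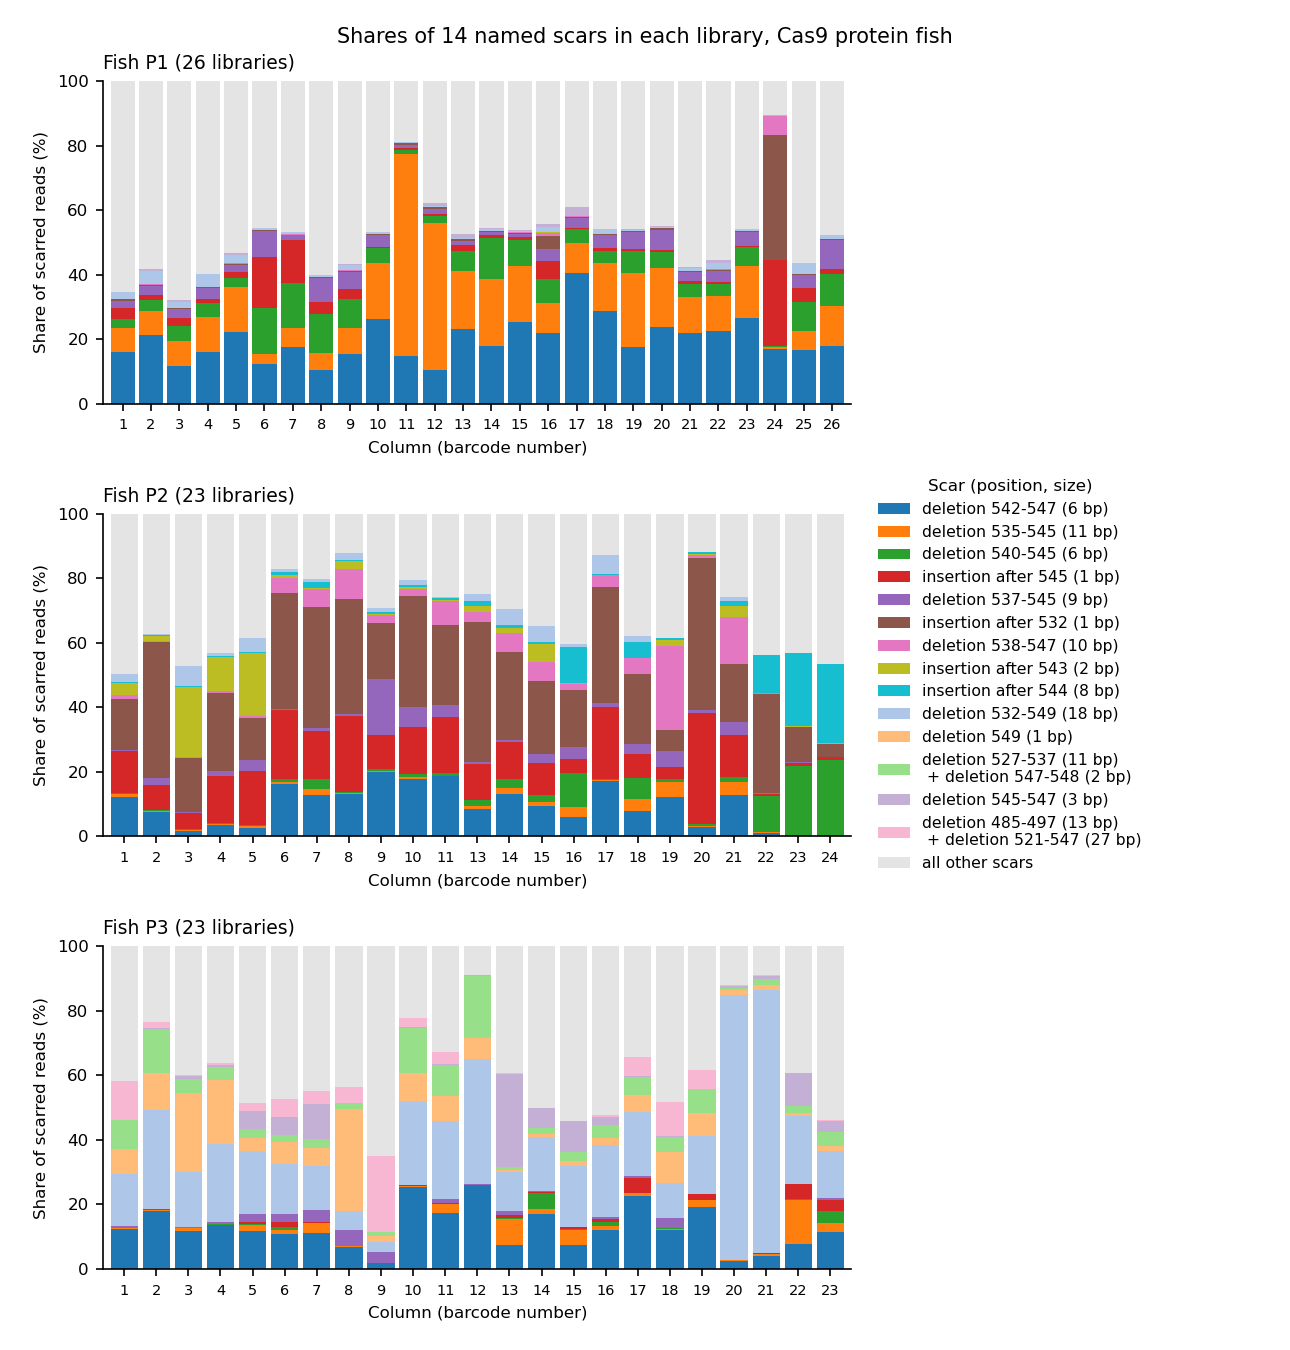
Shares of the named scars in every library of P1 (top), P2 (middle) and P3 (bottom), as stacked percent of scarred reads (y axis) by column number (x axis). The leading scar changes from fish to fish, and columns such as P1 24, P2 23 and 24, and P3 9, 20 and 21 differ from most other columns of their fish.

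The deletion of bases 542 to 547, which keeps the reading frame of GFP, was the one scar that was abundant in all 3 fish. In P1 its share ran from 10.5% in column 8 through a median of 17.9% to 40.7% in column 17, so it was at least 10% in all 26 P1 libraries. In P2 the lowest share was 0.380% in column 23, the median 9.38% and the highest 20.04% in column 9. In P3 these values were 1.74% in column 9, 11.9%, and 26.0% in column 12. The ranges of the 3 fish overlapped widely, and the means were 19.9 ± 6.57%, 9.49 ± 6.28% and 12.7 ± 6.65%. The scar was as abundant in the Cas9 RNA fish, with means of 16.3%, 9.53% and 19.3% in R1, R2 and R3. It ranked first in 26 of 31, 2 of 13 and 13 of 14 of their libraries.

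The 1-bp insertion after base 532, which shifts the reading frame, separated P2 from the others. Its share in P2 ran from 4.09% in column 24 through a median of 24.2% to 46.9% in column 20, with a mean of 25.3 ± 12.03%, or 27.0 ± 11.1% without columns 23 and 24. In P1 the median was 0.371%, and the mean of 2.0% fell to 0.529% once the library labelled column 24, at 38.8%, was left out. The next highest P1 library was the shallow column 16 at 4.13%. In P3 the mean was 0.00885% and the highest value 0.103% in column 2. Between-fish differences accounted for 66.8% of the variance of this scar over the 72 libraries, the highest among the 14 named scars, and for 80.9% without the 3 libraries that stood apart. The lowest was 12.1%, or 13.99% without them, for the 9-bp deletion of bases 537 to 545. The 14 scars were named by their shares in these same libraries, so these percentages describe the fish and test nothing.

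The 18-bp deletion of bases 532 to 549 had a higher mean in P3 than in P1 and P2, but was also common in R3. Its share in P3 ran from 3.20% in column 9 through a median of 18.9% to 82.0% in column 20, and the mean was 24.03 ± 19.8%. Columns 20 and 21, at 82.0% and 81.7%, stood far above the other P3 libraries, and they overlapped each other by 93.98%. The means in P1 and P2 were 1.26% and 1.92%, and no library of these fish exceeded 6.39% (P2 column 3). Among the Cas9 RNA fish the scar averaged 8.10% in R3, with a highest value of 15.8%, 3.32% in R1 and 1.91% in R2.

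In P1 the widest range belonged to the 11-bp deletion of bases 535 to 545. It was lowest in the library labelled column 24, at 0.561%, had a median of 11.2%, and reached 45.6% in column 12 and 62.5% in column 11. Its mean was 14.7 ± 13.1% in P1, or 15.3 ± 13.02% without column 24, against 1.13% in P2 and 2.07% in P3. The scar was also common in the Cas9 RNA fish, with means of 3.96%, 6.85% and 4.51% in R1, R2 and R3. Its highest value in P3 was 13.5% in column 22, and in R1 13.2% in column 17. Column 11 of P1 thus held more of its reads on 1 scar than the 5 most abundant scars together held in the median P1 library, 56.9%.

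The other P1 scars among the first 5 also occurred in P2. The 1-bp insertion after base 545 had a P1 median of 1.36% and a mean of 3.60%, or 2.68% without column 24, and its highest values were 26.5% in column 24 and 15.9% in column 6. In P2 its mean was 12.2 ± 8.23%, from 0.807% in column 22 to 34.4% in column 20, and it was at least 10% in 14 libraries there, The deletion of bases 540 to 545 (6 bp) averaged 6.25 ± 3.85% in P1, from 0.366% in column 24 to 14.2% in column 6. In P2 it averaged 4.0%, or 2.26% without columns 23 and 24, in which it reached 21.4% and 23.1%. The 9-bp deletion of bases 537 to 545 averaged 3.48%, 2.54% and 1.16% in P1, P2 and P3, with a highest value of 17.4% in P2 column 9.

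Several scars led only 1 or a few libraries. In P2 the 10-bp deletion of bases 538 to 547 averaged 4.49 ± 5.90%, reached 26.0% in column 19 and 14.7% in column 21, and had a median of 2.34%. Outside P2 it reached 10.4% in R3 column 10, 4.41% in R2 column 14 and 5.81% in the library labelled P1 column 24. Its highest share in P3 was 0.00801%. The 2-bp insertion after base 543 had a P2 median of 0.977% but stood at 21.6% in column 3 and 19.5% in column 5, and no library held more than 8 reads of it in P1 or 2 in P3. The 8-bp insertion after base 544 was at least 0.293% in every P2 library, with a median of 0.731%, and no library held more than 4 reads of it in P1 or 30 in P3. These last 2 scars thus had reads in all P2 libraries but made up a large share of only a few. The insertion after base 532 likewise held at least 0.273% in every P1 library, with a median of 0.371% and 38.8% in column 24. Whether such low shares come from carry-over of reads between libraries was not tested.

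Among the P3 scars were several that P1 and P2 hardly held. The 1-bp deletion of base 549 averaged 7.34 ± 8.00%, from 0.511% in column 13 to 31.5% in column 8, when its highest value was 0.0114% in P1 and 0.0117% in P2. The scar with deletions of bases 527 to 537 and 547 to 548 averaged 5.24 ± 4.79% and reached 19.2% in column 12. It had no read in P2 and at most 3 reads in a P1 library. The scar with deletions of bases 485 to 497 and 521 to 547 averaged 3.81 ± 5.48%, from 0.110% in column 12 to 23.6% in column 9, and no library of P1 or P2 held a read of it. The 3-bp deletion of bases 545 to 547 had the same mean of 3.81% in P3 but was unevenly spread. It stood at 29.0% in column 13, 10.9% in column 7 and 10.3% in column 22, with 7 libraries at 5% or more against a median of 0.466%. This scar was not particular to P3. It reached 2.56% in P1 column 17, though at most 0.0805% in P2. In R1 it averaged 1.59%, reached 18.2% in column 19 and ranked first in 2 libraries.

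The SD over libraries of the leading scar was 33.6 times the SD expected from counting alone for the deletion of bases 542 to 547 in P1, 91.6 times for the insertion after base 532 in P2 and 152 times for the deletion of bases 532 to 549 in P3. The counting SD takes reads as independent and holds no error of amplification or dissection, so these ratios say only that counting error is small at this depth.

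The scarred reads of a library were spread over few scars. The effective number of scars, which is 1 over the sum of squared shares and counts the scars that a library would hold if all were equally abundant, had a median of 11.5 in P1, 6.63 in P2 and 8.96 in P3, and of 11.8 in P1 and 7.55 in P2 without the 3 libraries that stood apart. In P1 it ran from 2.40 in column 11 to 25.04 in column 3, in P2 from 2.94 in column 20 to 12.9 in column 1, and in P3 from 1.47 in column 20 to 19.6 in column 23. The leading scar held 24.4 ± 11.3% of scarred reads in P1, 28.2 ± 9.03% in P2 and 27.3 ± 18.3% in P3, and on average 23.9% in P1 and 28.6% in P2 without those libraries. It took a median of 4, 3 and 4 scars to reach 50% of the scarred reads, and 1 scar was enough in P1 column 11 and in P3 columns 20 and 21.

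The number of different scars in a library moved with depth, whereas the effective number hardly did. Spearman's rho with the scarred reads was 0.953, 0.942 and 0.827 for the number of scars in P1, P2 and P3, and −0.0632, 0.208 and −0.215 for the effective number (n = 26, 23 and 23 libraries, which share a fish). For the share of the leading scar it was −0.0660, −0.462 and 0.130. Unscarred GFP gave −0.465, −0.00791 and −0.00494, and the in-frame share 0.0557, 0.487 and 0.111, so these measures moved with depth in single fish. Numbers of different scars are therefore not compared here.

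The 3 fish also differed in the kind of scar. Scars made only of insertions held a median of 51.4% of scarred reads in P2, from 13.8% in column 19 to 83.4% in column 20, against 5.61% in P1 and 1.49% in P3. In P1 the highest value, 66.1%, belonged to the library labelled column 24. Scars with a single insertion or deletion held a median of 92.3%, 96.1% and 74.2% in P1, P2 and P3, so more of the reads of P3 carried several changes on 1 molecule. The in-frame share, that is the percent of scarred reads whose net change in length is a multiple of 3, averaged 49.9% in P1, 28.7% in P2 and 56.1% in P3, and 51.1% in P1 and 27.5% in P2 without the libraries that stood apart. It was lowest at 6.51% in P2 column 20, the library richest in the insertion after base 532, and highest at 93.7% in P3 column 20, the library richest in the 18-bp deletion. With scars of 1 inserted or deleted base left out, P2 averaged 50%.

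**Figure D2:**
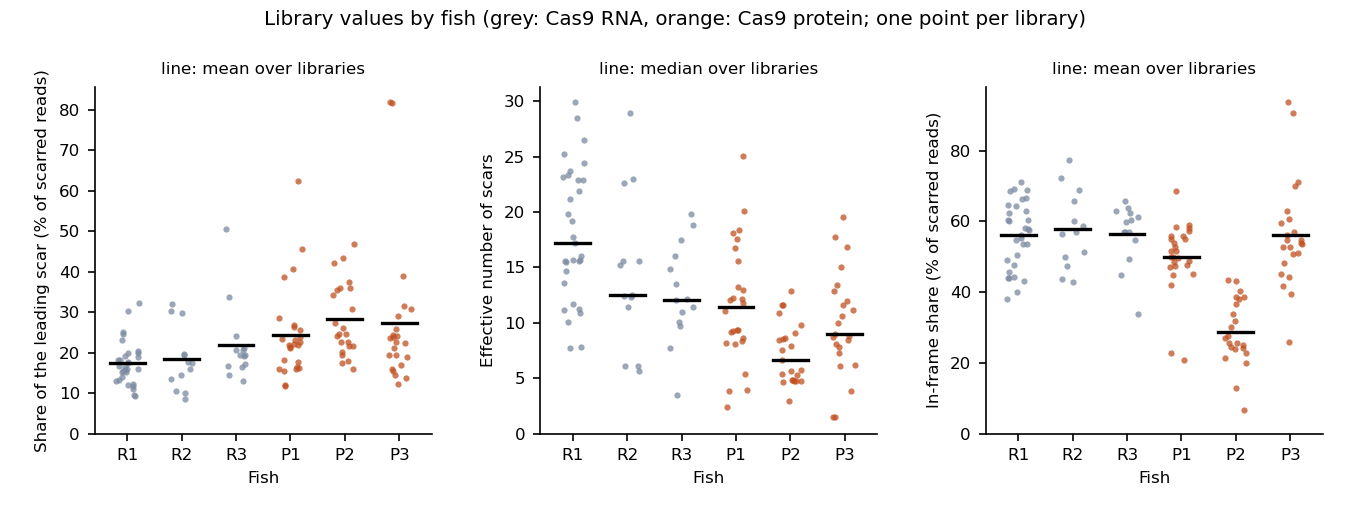
Share of the leading scar in percent of scarred reads (left), effective number of scars (middle) and in-frame share in percent of scarred reads (right) on the y axes for every library (points) of the 6 fish (x axes), with black lines for the mean or, in the middle, the median over the libraries of a fish. The libraries of P2 lie low in in-frame share (mean 28.7%), and P3 columns 20 and 21 lie highest in the share of the leading scar.

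Some scars rose and fell together from library to library. Among the 20 scars of highest mean in each fish, a scar was joined to a set when its share had a Pearson correlation of at least 0.95 with that of another member over the libraries other than the 3 that stood apart. The libraries share a fish and shares sum to 100%, so these correlations are a description, and scars of the same cells or of several copies of the transgene in 1 cell cannot be told apart by them. The largest sets were a set of 4 scars in P2 and a set of 5 in P3.

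The P2 set held the deletion of bases 540 to 545, the 8-bp and a 1-bp insertion after base 544 and the deletion of bases 531 to 551 (21 bp). Both deletions were also common in other fish, with means of 6.25% and 3.06% in P1 and 2.86% and 2.18% in R3. Both insertions averaged at most 0.338% in any other fish. Within the set, correlations lay between 0.940 and 0.997 over 21 libraries, and between 0.975 and 0.999 over all 23. Together the 4 scars held 1.23% of scarred reads in column 2, a median of 3.51%, and 44.1% in column 16, 83.4% in column 23 and 90.6% in column 24. Their shares stayed close to each other where they were high: in column 16 they were 10.6%, 11.1%, 10.7% and 11.7%. In column 24 they were 23.1%, 24.6%, 24.2% and 18.7%. Columns 23 and 24 of P2 were thus made up almost wholly of scars that every other P2 library also held at lower shares, and 6 P2 libraries held at least 10% on the set. Whether the lowest of these shares come from carry-over was not tested.

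A second pair in P2, the 2-bp insertion after base 543 and the 3-bp deletion of bases 542 to 544, had a correlation of 0.963. Its summed share was 0.0919% in column 24, had a median of 1.34%, and reached 36.8% in column 3 and 30.4% in column 5. Columns 3 and 5 were the libraries in which the insertion ranked first. In P1 the only set was the deletion of bases 542 to 546 (5 bp) with the deletion of base 527 (1 bp), with a correlation of 0.977 and a summed share between 0.220% in column 24 and 11.3% in column 10. The first of the 2 scars also occurred in P2, at a mean of 2.11% against 2.22% in P1, whereas the deletion of base 527 averaged 1.89% in P1 and 0.00410% in P2.

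The P3 set of 5 scars held the scar with deletions of bases 485 to 497 and 521 to 547, together with the deletions of bases 533 to 545, 519 to 523, 535 to 549 and 538 to 541. Their correlations lay between 0.95 and 0.999 over 23 libraries. The summed share was 0.412% in column 12, had a median of 6.75%, and reached 39.4% in column 1, 39.7% in column 18 and 79.7% in column 9, with at least 10% in 10 libraries. No single scar of the set exceeded 0.760% in any P1 library or 0.380% in any P2 library. The other P3 set was the deletion of base 549 with a scar of 4 deletions that includes it (bases 524 to 528, 535, 544 to 545 and 549), with a correlation of 0.994. Its summed share ran from 0.718% in column 13 through 7.65% to 41.7% in column 8, and the deletion of base 549 alone was the more abundant of the 2, with 31.5% against 10.2% in column 8 and 0.511% against 0.207% in column 13.

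**Figure D3:**
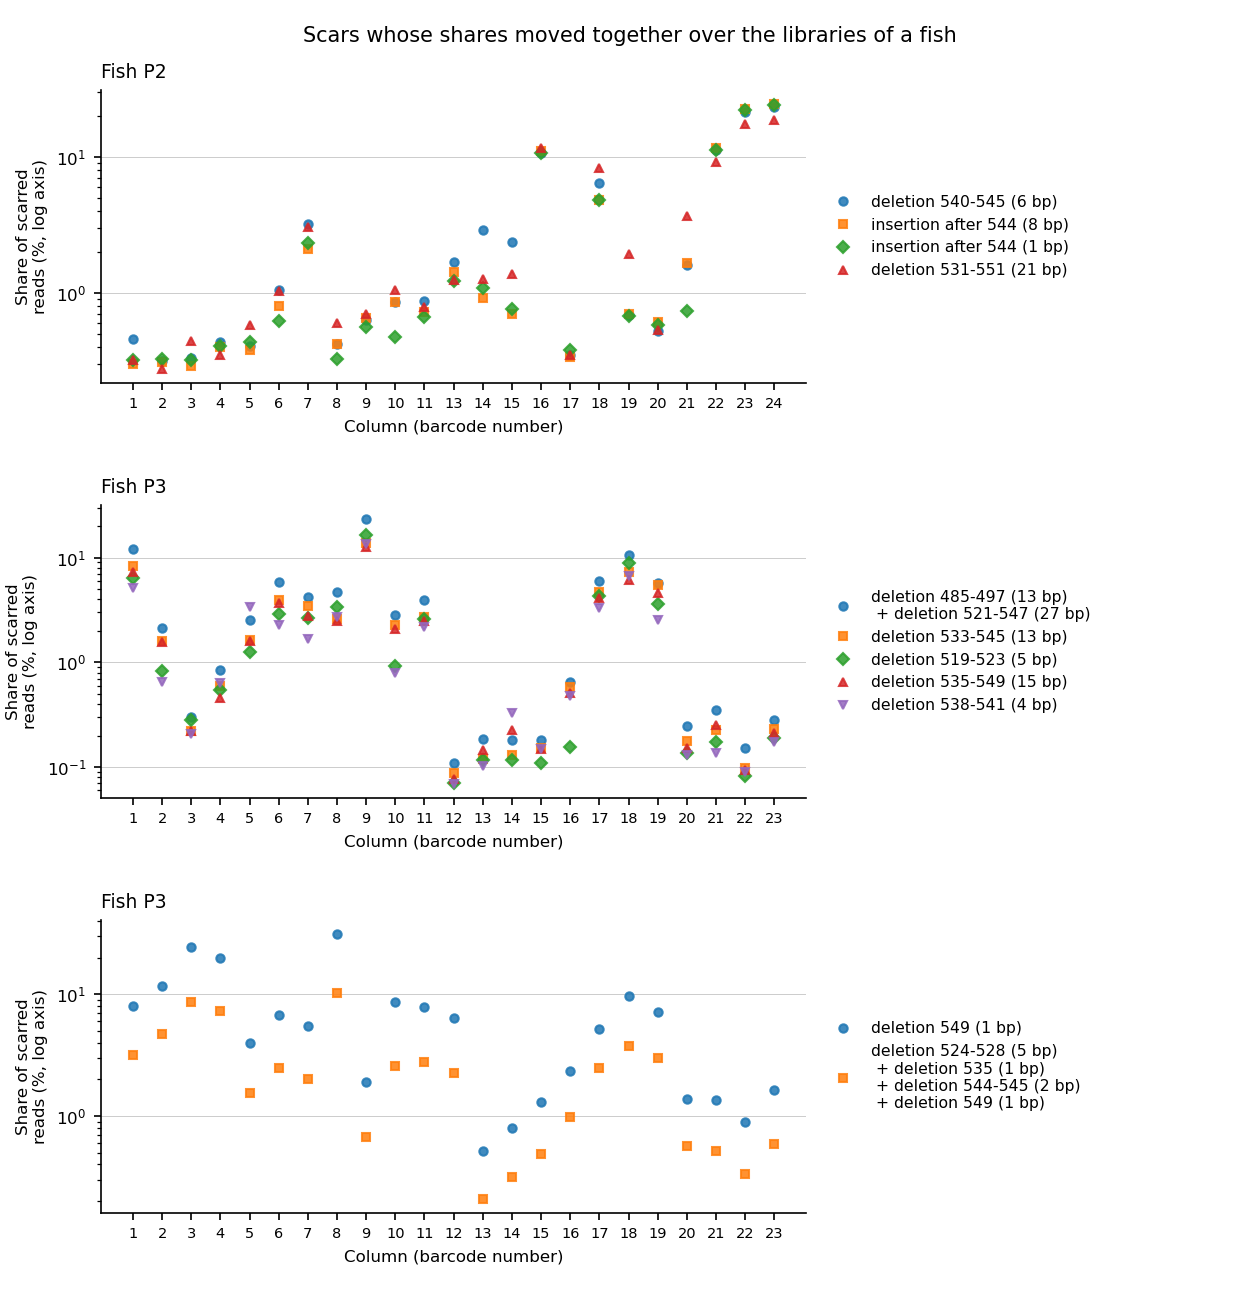
Shares of the member scars (y axes, percent of scarred reads on a log axis, 1 symbol a scar) of the set of 4 scars in P2 (top) and of the sets of 5 (middle) and 2 (bottom) in P3, by column number (x axes). The symbols of a set move together over a wide range, in P2 from a summed 1.23% in column 2 to 90.6% in column 24 and in P3 from 0.412% in column 12 to 79.7% in column 9.

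Libraries of 1 fish resembled each other more than libraries of other fish. The median overlap between libraries was 54.4% in P1 over 325 pairs, 45.5% in P2 over 253 pairs and 43.7% in P3 over 253 pairs, and the median Pearson correlation of the shares was 0.816, 0.687 and 0.712. Without the 3 libraries that stood apart, the median overlap was 56.0% in P1 over 300 pairs and 50.02% in P2 over 210, and the median correlation 0.829 and 0.741. Pairs share libraries, so their number is not a number of replicates.

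**Figure D4:**
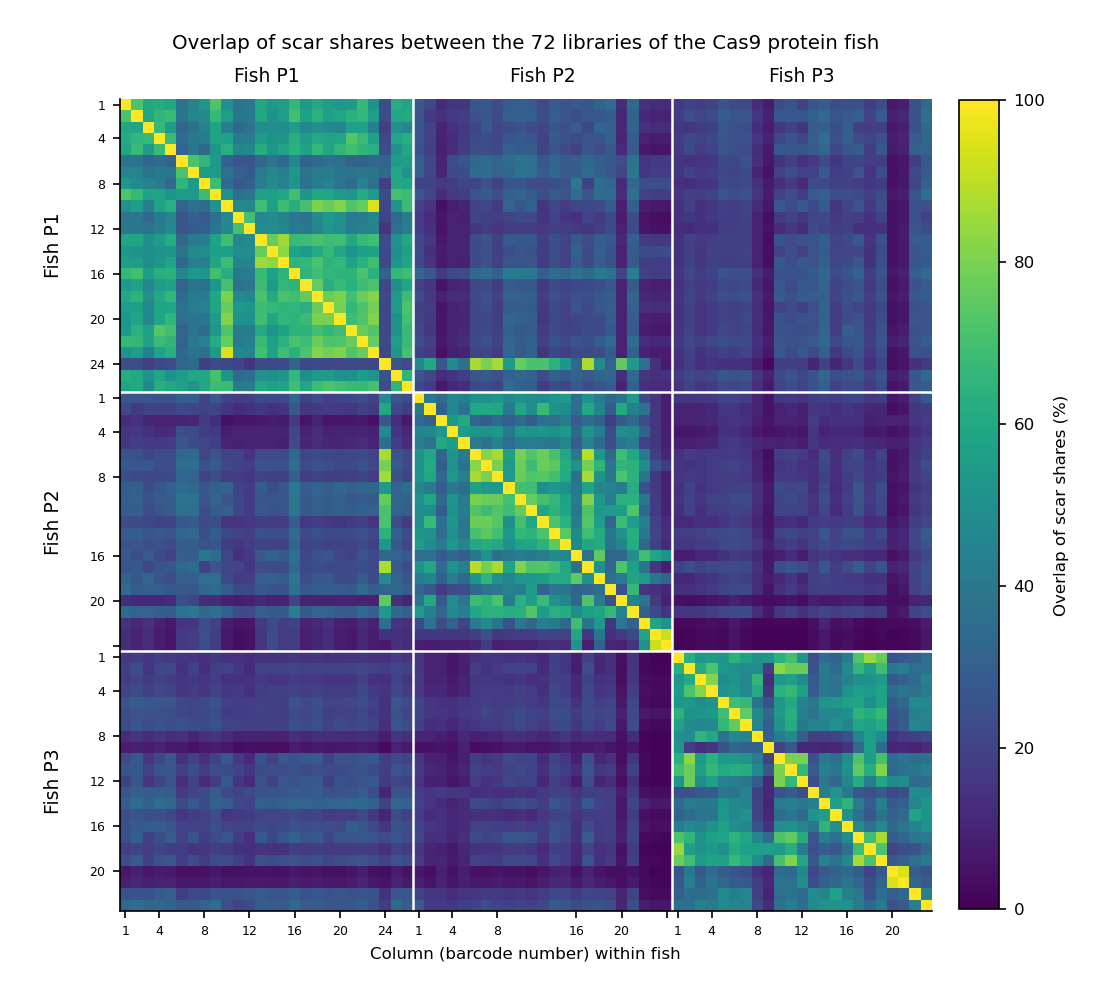
Overlap of scar shares (colour, in percent) between all 72 libraries of P1, P2 and P3, with column numbers along both axes and white lines between the fish. The blocks of the fish on the diagonal are brighter than the rest, except that the library labelled P1 column 24 is bright against P2, and that P2 columns 23 and 24 are bright against each other.

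Within a fish the overlap ranged widely. The closest pairs were columns 10 and 23 of P1 at 94.6%, columns 23 and 24 of P2 at 91.9% and columns 20 and 21 of P3 at 93.98%, and each was the only pair of its fish at or above 90%. The most distant pairs were columns 12 and 24 of P1 at 15.6%, columns 2 and 24 of P2 at 8.07% and columns 9 and 22 of P3 at 9.88%. The closest pairs did not always have the same unscarred GFP: it was 10.6% and 4.09% in P2 columns 23 and 24, against 54.4% and 59.5% in P3 columns 20 and 21.

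Neighbouring column numbers were more alike than other columns in P1 and P3. The median overlap of neighbours was 68.2% in P1 (25 pairs), against 53.6% over the other 300 pairs, and 53.4% in P3 (22 pairs), against 43.0% over the other 231. In P2 it was 53.2% (21 pairs) against 44.8%, but 50.6% against 50% without columns 23 and 24. The closest library was a neighbour for 11 of 26 libraries in P1, 8 of 23 in P2 and 7 of 23 in P3. What the order of columns stands for is not given in the sources used here, and carry-over between barcodes, neighbouring or not, was not tested.

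Of the 72 libraries, 69 had a higher median overlap with their own fish than with any of the other 5. The exceptions were the library labelled P1 column 24, P2 column 24 (10.5% with its own fish and 12.1% with P1) and P3 column 13 (28.2% with its own fish and 31.6% with R3). P3 column 9 had a median overlap of 16.6% with its own fish and 8.62% with R3, the most alike of the others. For 70 of the 72, the single closest library was of the same fish. The exceptions were P1 column 24 and P2 column 20, whose closest library was P1 column 24, at 75.05%.

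**Figure D5:**
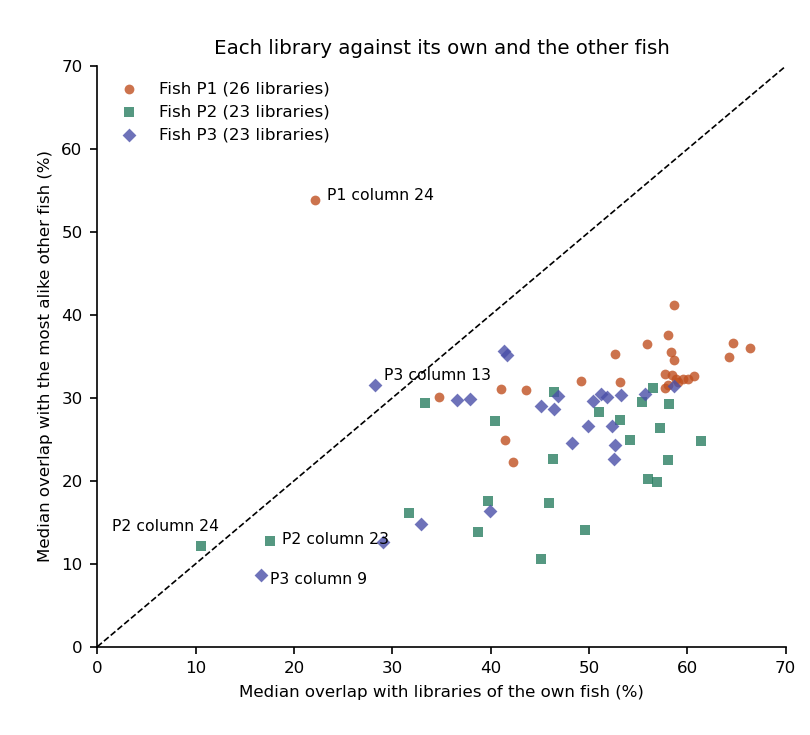
Median overlap of each library with the libraries of its own fish (x axis, percent) against that with the most alike of the other 5 fish (y axis, percent), with 1 symbol per library of P1, P2 and P3 and a dashed line of equality. All but 3 of the 72 libraries lie below the line, and the library labelled P1 column 24 lies far above it at 22.1% and 53.9%.

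The median overlap with libraries of the other fish was 25.8% for P1, 18.1% for P2 and 19.2% for P3, that is 28.6, 27.4 and 24.5 percentage points below the median overlap within the fish. Without the 3 libraries that stood apart the gaps were 29.8, 31.2 and 24.2 points. In P2 the gap rested largely on scars of 1 inserted or deleted base, without which it was 8.76 points, against 27.0 in P1 and 23.4 in P3, and the overlap between P2 libraries was 31.5%. Libraries that had the same column number in different fish were no more alike than others, with a median overlap of 22.4% over 257 pairs against 22.9% over 6663. The highest overlap of such a pair was 43.5%, against 87.8% for P1 column 24 with P2 column 17.

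The mean scar profiles of the Cas9 protein fish overlapped by 35.2% between P1 and P2, 25.8% between P1 and P3 and 20.4% between P2 and P3. Without the 3 libraries that stood apart these values were 31.5%, 25.9% and 21.7%. Of the 10 scars of highest mean, P1 and P2 shared 5, P1 and P3 shared 1, and P2 and P3 shared 1. A mean share of at least 1% was reached in all 3 fish by only 4 scars, the deletions of bases 532 to 549, 535 to 545, 537 to 545 and 542 to 547. These 4 held 39.3% of the mean profile of P1, 15.1% of P2 and 39.9% of P3, and all 4 were also present in every Cas9 RNA fish at a mean of 0.777% or more. The deletion of bases 542 to 547 had the highest mean of all scars in R1 and R3, as in P1. A further 6 scars reached 1% in 2 of the 3 fish and 28 in 1 fish only. The latter held 20.2%, 20.3% and 32.4% of the profiles of P1, P2 and P3. These counts take all libraries. The insertion after base 532, at a mean of 25.3% in P2, was among the 6 only through the library labelled P1 column 24. Without that library its P1 mean was 0.529%, so it would count for P2 only, and the 20.3% of P2 leaves it out. At a limit of 0.1% the numbers were 17, 22 and 105 scars.

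The design sets the 3 Cas9 protein fish against the 3 Cas9 RNA fish, with the fish as the unit. The Cas9 protein fish had fewer effective scars per library and a larger leading scar, and in these 2 measures the fish of the groups did not overlap. With 3 against 3 fish, the exact two-sided permutation test over 20 assignments cannot give a p below 0.10, so none of the 7 comparisons could pass 0.05. The effective number of scars was 11.5, 6.63 and 8.96 in P1, P2 and P3 and 17.2, 12.5 and 12.1 in R1, R2 and R3. The means were 9.02 ± 2.42 and 13.9 ± 2.85 (SD, n = 3 fish each; exact permutation p = 0.10, 0.233 after Benjamini-Hochberg adjustment over 7 comparisons). The leading scar held 24.4%, 28.2% and 27.3% in the Cas9 protein fish and 17.3%, 18.4% and 21.9% in the Cas9 RNA fish, that is 26.6 ± 1.96% against 19.2 ± 2.37% (n = 3 each; exact permutation p = 0.10, adjusted 0.233). With the reads of a fish pooled, the leading scar held 20.2%, 20.2% and 28.8% in P1, P2 and P3, the difference between the groups was 3.53 points (exact permutation p = 0.30) and the fish overlapped. The difference in the effective number was then -3.22 (exact permutation p = 0.20).

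The in-frame share was lower in every Cas9 protein fish, but only just in P3. It was 49.9%, 28.7% and 56.10% in P1, P2 and P3, and 56.11% in R1, the lowest of the Cas9 RNA fish. The means were 44.9 ± 14.4% and 56.8 ± 0.911% (n = 3 each; exact permutation p = 0.10, adjusted 0.233). Without scars of 1 inserted or deleted base the difference was -3.21 percentage points (exact permutation p = 0.50), and without P3 columns 9 and 13 and the 3 libraries that stood apart P3 stood at 56.8%, above R1 (exact permutation p = 0.30). Unscarred GFP was 29.0 ± 6.29% against 54.6 ± 28.2% (n = 3 each; exact permutation p = 0.20, adjusted 0.35), and the groups overlapped, since R1 at 32.4% lay below P1 at 36.3%. The mean of the Cas9 RNA fish rested largely on R2, at 86.3%, with R3 at 45.1%. In these counts R2 thus lay above the limit of unscarred GFP that the paper gives for the fish it kept, and the reason was not tested.

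How alike the libraries of a fish were did not separate the groups. The median overlap between libraries averaged 47.8 ± 5.73% in the Cas9 protein fish and 48.9 ± 1.40% in the Cas9 RNA fish (n = 3 each; exact permutation p = 0.80, adjusted 0.90). The sign of this difference changed without the 3 libraries that stood apart. The median correlation averaged 0.738 and 0.731 (n = 3 each; exact permutation p = 0.90, adjusted 0.90). The Cas9 protein fish had profiles that overlapped each other by 27.1% on average, the Cas9 RNA fish by 39.4%, and fish of different groups by 31.6%. Overlap within groups exceeded that between groups by 1.69 percentage points (exact permutation over 10 splits, p = 0.50, adjusted 0.70).

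The edgeR test called no scar more or less abundant in the Cas9 protein fish than in the Cas9 RNA fish. Among 640 scars with at least 10 reads in at least 3 fish, edgeR's quasi-likelihood test called 0, or 0% of those tested, at a Benjamini-Hochberg adjusted p under 0.05, with a smallest adjusted p of 0.287. The unadjusted p was under 0.05 for 81 of the 640. DESeq2 called 48 of the same 640 scars, 26 higher and 22 lower. It scaled the reads by its own default and not, as edgeR did here, by the scarred reads of a fish. The test with limma on mean shares called 0. Of the 14 named scars, 12 entered the edgeR test and none was called by it. The insertion after base 532 had the largest fitted difference of these, 7.43 ± 3.10 (log2, ± SE; edgeR, adjusted p = 0.366), and was abundant in P2 only, apart from the library labelled P1 column 24. The deletion of bases 542 to 547 differed by -0.19 ± 1.42 (log2, ± SE; edgeR, adjusted p = 0.980). Each SE here was worked back from the edgeR F statistic, as the size of the log2 difference over the square root of F. The other 2 named scars, both of P3 with a pair of deletions, had too few reads in other fish to be tested.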

How the data were processed

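ScarTrace libraries of genomic DNA from 6 fish were analysed. The authors mapped reads to a GFP reference with BWA 0.7.16a and deposited raw read counts per scar and barcode, without normalization, before their noise filter and without summed technical replicas. Scars are listed as insertions and deletions only, so substitutions are not seen, and an alignment can place the same change at neighbouring bases of a repeat.

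A column counted as a library from 1000 reads. Shares, overlaps, effective numbers and in-frame shares were computed per library, then summarised per fish, as the mean over libraries for shares and as the median for effective numbers and for pairs. The groups were compared over fish with exact permutation tests. Reads of each scar were summed per fish and tested with edgeR, with scarred reads as library size. Named were, for each Cas9 protein fish, the 5 scars of highest mean share, every scar that ranked first in a library, and the scar with the largest range. The members, the minimum of 1000 reads and the lists were chosen with earlier results of these data known. Separate dissected parts are not separate animals, so the fish was the unit of every test.

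The permutation and edgeR steps were first tested on simulated data, in which edgeR, with 3 fish a group, recovered a minority of the planted changes, so a count of 0 does not show that scars did not differ. Alternatives were other read minimums, a noise filter, reads drawn to 1000 per library, pooled reads, other indices, each fish left out, a replicate block, TMM, DESeq2 and limma. Leaving out the libraries that stood apart was added after seeing the data. The count tests ran in R 4.3.3 with edgeR 4.0.16, limma 3.58.1 and DESeq2 1.42.0, and all other steps in Python 3.11.15 with SciPy 1.17.1, pandas 2.3.3, NumPy 2.4.6 and Matplotlib 3.10.9.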

Additional observations from a re-analysis of the deposited data

Results flagged for a closer look

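A total of 8 columns of the Cas9 protein fish with 100 to 1000 reads lay below the minimum of a library and entered no comparison, but held scarred reads above the floor of 3. In P1 these were 87 scarred reads in column 27, 41 in column 56, 68 in column 60, 122 in column 62, 38 in column 63 and 30 in column 65. P2 column 12 held 243 scarred reads and P3 column 24 held 258. Columns 27 of P1, 12 of P2 and 24 of P3 were most alike their own fish, with median overlaps of 52.7%, 47.3% and 53.1%, and their unscarred GFP was 38.3%, 27.5% and 29.1% of reads. In the other 5 P1 columns the overlap with P1 was 9.87% to 26.8% and unscarred GFP ran from 75% to 82.6%, above every P1 library. Each of these 5 was more alike R2 or R3 than P1, with median overlaps of 18.8% to 31.5%. At 30 to 122 scarred reads, overlaps are also limited by depth. What these columns hold was not tested.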

How the results depend on the processing

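Over 150 alternative values of the results over all fish, 130 were counted as kept, 15 turned in sign and 5 moved in size. A difference between the groups was counted as kept when its sign held, whatever its p-value, since no permutation p could fall under 0.05. The kept values include the differences with the replicate number as a block, which equal the main ones by arithmetic and could not change. For the overlap with the own fish and the number of scars called, a change in size was counted too. Of 198 values for single fish, 17 moved, 12 of them with all columns. A value of a single fish could not move where a setting only left out libraries of other fish. With every column that held a scarred read, the protein minus RNA difference in the leading scar became -0.473 percentage points, that in the correlation between libraries -0.0282, and libraries overlapped their own fish by only 5.0 points more than other fish, instead of 26.8, and by 2.44, -0.0554 and 12.6 in P1, P2 and P3. The difference in overlap between libraries turned from -1.10 to 1.73 points with reads drawn to 1000, to 0.275 with columns of at least 90% overlap averaged, and to 0.971 without the 3 libraries that stood apart, and to 1.93 without P3 columns 9 and 13 as well, which raised the excess of overlap with the own fish to 29.1 points. The difference in correlation turned to -0.0208 as a mean over pairs and to -0.0615 without scars of 1 changed base, which also lowered the excess of overlap with the own fish to 19.7 points, mainly in P2 (8.76). Pooled reads lowered the differences in the leading scar to 3.53 points and in effective scars to -3.22, where P2 held 12.1. DESeq2 called 48 scars. The causes were not tested.

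With each fish left out, the differences were -6.14 to -3.28 effective scars, 6.50 to 8.77 points of leading scar, -17.5 to -3.81 points in frame, -36.6 to -9.69 points unscarred, -0.0315 to 0.0331 in correlation, -4.36 to 0.984 points of overlap between libraries and -2.14 to 6.01 points of overlap between fish. The sign turned in the correlation without P1 or R2, in the overlap between libraries without P2 or P3, and in the overlap between fish without any one Cas9 RNA fish. Scars called numbered 0 to 2, with 2 called without fish R3. The labels give both groups the numbers 1 to 3, but they belong to different fish, so the numbers were not taken as pairs. Deviations of same-numbered fish correlated at 0.0224, 0.106 and 0.191 over 265 scars, and those of differently numbered fish at -0.166 to 0.0295. Whether the numbers mark something shared was not tested. With the replicate number as a block, the differences of -4.92 effective scars and 7.43 points of leading scar stay as they are by arithmetic. The exact sign-flip test gave p = 0.25 for each, the smallest that 8 sign flips allow, and edgeR with the block called 0 scars. Depth limits P1 column 16, in which a scar under 0.163% could not be seen. The number of fish limits every test.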
